A study of Mus musculus with 16 samples.

Results

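The matrix metalloproteinases (MMPs) Mmp2, Mmp3, Mmp9, Mmp12, Mmp13, Mmp14 and Mmp19 and their tissue inhibitors Timp1, Timp2 and Timp3 were followed in mouse dorsal skin. They were chosen by gene symbol and make up 10 of the 23282 rows of each count table. All 10 passed the filter on low counts, which left 14854 rows for testing. RNA from the dorsal skin of 16 male wild-type C57BL/6 mice (C57BL/6N in the study's methods), obtained at 3 weeks of age, was sequenced as 3′-end libraries, 1 per mouse and 4 per group. Cont mice ate normal chow. LowAhR mice ate, for 12 weeks, a purified diet low in ligands of the aryl hydrocarbon receptor (AhR, a ligand-activated transcription factor) and were kept on paper bedding free of such ligands. LowAhR+AD mice had this diet and bedding, and from the end of week 2 their backs were also painted 2 times a week with 1% 2,4-dinitrochlorobenzene (DNCB, a contact sensitizer used to induce an atopic dermatitis-like state) in acetone and olive oil. LowAhR+AD+BJ mice had all of this and were given Bojungikgi-tang (BJIKT, a herbal decoction) by daily gavage at 1 g/kg. All 3 groups other than Cont therefore shared the diet and bedding, and no DNCB-painted group ate normal chow. The LowAhR group is the comparison for DNCB within the diet. The sources used here do not say whether Cont or LowAhR mice had the solvent alone, or whether LowAhR+AD mice had water by gavage. Solvent, gavage and handling can therefore not be told apart from DNCB and BJIKT, and "unpainted" below means without DNCB.

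MMPs are zinc-dependent proteases that are secreted or held at the cell surface as inactive proforms and, once activated, cut collagens, other matrix proteins, cytokines and adhesion molecules. TIMPs bind the active site of MMPs and block it. In skin, MMPs and TIMPs are best known from wound repair, where keratinocytes, fibroblasts and invading leukocytes make different members, and from the remodelling of the dermis in inflammation.

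On the mouse assembly GRCm38.p6, which has the coordinates of the mm10 build named in the submitters' processing notes, Mmp13 (chr9:7272514-7283333), Mmp12 (chr9:7344397-7360461) and Mmp3 (chr9:7445822-7455975) lie together within 183 kb of chromosome 9. The remaining members lie apart, at chr8:92827290-92853421 for Mmp2, chr2:164940326-164955850 for Mmp9, chr14:54431598-54442456 for Mmp14, chr10:128790910-128800827 for Mmp19, chrX:20870166-20874737 for Timp1, chr11:118301061-118355411 for Timp2 and chr10:86300412-86349505 for Timp3. RefSeq promoter windows of 300 bases (250 before the transcription start and 50 after it) were at hand for 7 of the 10 members. The last 100 bases before the start are shown for Mmp13 and Timp1, whose levels were higher in DNCB-painted skin, and for Mmp3 and for the second annotated start of Mmp12, their neighbours on chromosome 9. All 4 are read on the plus strand. Capitals mark TGANTCA, the binding motif of AP-1 (a transcription factor of the Fos and Jun families), the TATA-box letters TATAAA, and GGGCGG or its complement, the core of GC boxes.

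Mmp13, chr9:7272414-7272513: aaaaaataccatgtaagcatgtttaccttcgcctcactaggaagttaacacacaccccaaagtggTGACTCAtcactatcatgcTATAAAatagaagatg

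Mmp3, chr9:7445722-7445821: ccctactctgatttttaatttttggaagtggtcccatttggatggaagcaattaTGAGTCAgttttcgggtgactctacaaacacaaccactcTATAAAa

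Mmp12, chr9:7347274-7347373: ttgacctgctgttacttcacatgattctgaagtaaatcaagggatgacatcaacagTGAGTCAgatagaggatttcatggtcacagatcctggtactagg

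Timp1, chrX:20870066-20870165: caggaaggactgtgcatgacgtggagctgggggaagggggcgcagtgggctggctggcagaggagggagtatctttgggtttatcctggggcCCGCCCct

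The Mmp13, Mmp3 and Mmp12 windows share a layout. TGANTCA begins 35 bases before the start in Mmp13, 46 bases before it in Mmp3 and 44 bases before the second start in Mmp12, and each of these windows also holds TATAAA, in Mmp12 just after the start. The Timp1 window has neither motif and a GC-box core 8 bases before the start. TGANTCA was also not found in the windows of Timp2, Timp3, Mmp14 and the first Mmp12 start, those of Timp2, Timp3 and Mmp14 have GGGCGG, and GCGTG, the core letters bound by AhR, stood in those of Timp1, Timp2 and Timp3. TGACGTCA, the cAMP response element, was found in none of the members' windows. For comparison, among all 32851 windows of the RefSeq table, 7.81% hold TGANTCA, 13.6% TATAAA, 35.7% GGGCGG, 32.4% GCGTG and 1.79% TGACGTCA, on either strand. These are matches of letters, and binding was not measured.

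Levels are given as CPM, the counts of a gene relative to the library total, scaled by trimmed-mean-of-M-values (TMM) factors. Each 3′-end read stands for about 1 transcript whatever its length, so no length correction was made. Library totals ran from 7080508 to 13467477 counts and were higher in every DNCB-painted skin than in every unpainted one. Depth and DNCB can therefore not be told apart by design. The Mmp13 and Timp1 changes in LowAhR+AD against LowAhR are also given with every library thinned to the lowest total. The genes of the further lists were not examined in thinned counts. LowAhR+AD replicate 1 stood apart: 38.2% of its genes with 20 to 40 counts predicted were at 0, against 0.798% to 13.6% in the other 15 libraries. The results of the members in LowAhR+AD against LowAhR, and some of those of further lists, are therefore also given without it. Markers of basal keratinocytes were present in every library, with a summed level of 2280 to 10250 CPM. Skin contents differed with DNCB. Summed markers of activated keratinocytes (Krt6a, Krt6b, Krt16 and Krt17) ranged from 525 to 1734 CPM without DNCB and from 11004 to 32976 with it, fibroblast markers (Col1a1, Col1a2, Col3a1, Dcn, Lum, Pdgfra and Pdgfrb) from 27698 to 69521 and from 3905 to 22611, and adipocyte markers from 1512 to 4182 and from 184 to 1493. Skeletal muscle markers ranged from 4727 to 16050 CPM without DNCB and from 316 to 7120 with it and so overlapped. So did hair follicle markers, with group means of 347 CPM in Cont, 3272 in LowAhR, 13817 in LowAhR+AD and 13454 in LowAhR+AD+BJ. In such bulk samples, fewer cells of a type and less RNA per cell cannot be told apart.

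**Figure D1:**
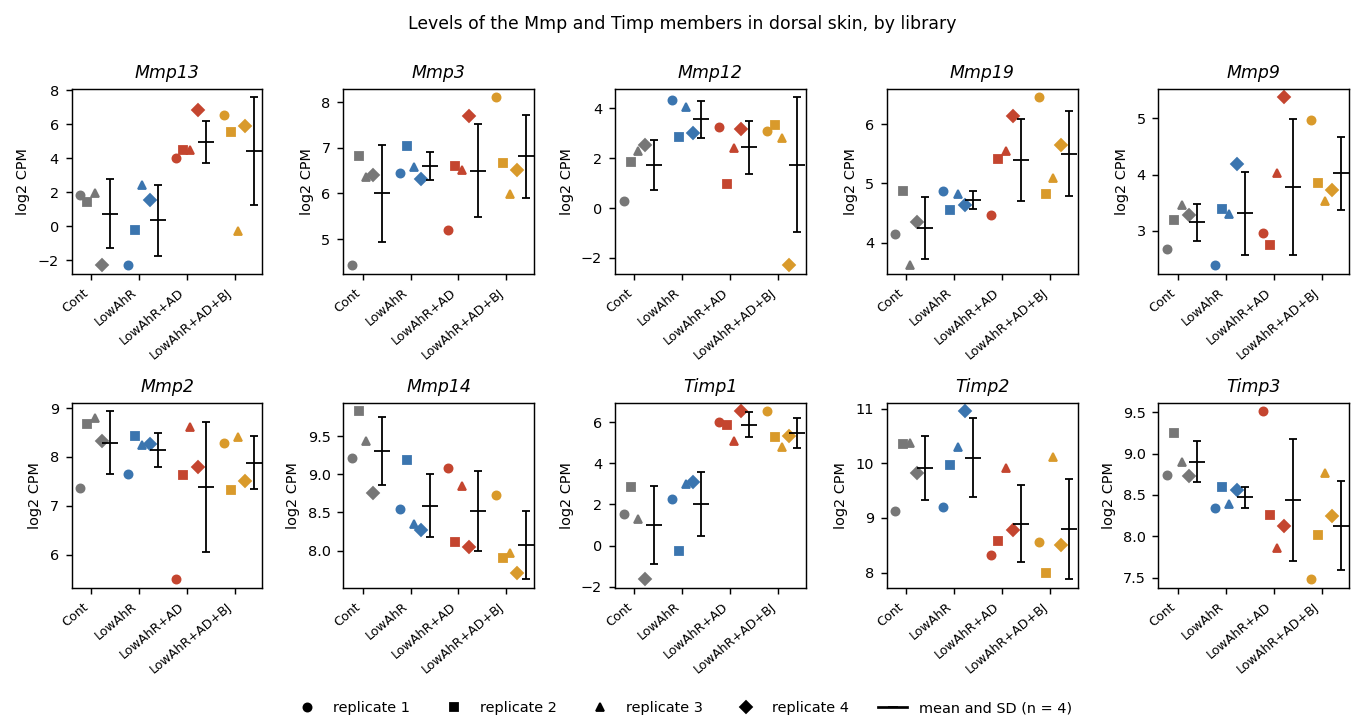
Level of each member in every library, as log2 CPM (y axis) by group (x axis), with 1 symbol per replicate and the mean and SD (n = 4) beside them. Timp1 lies higher in all 8 DNCB-painted skins than in all 8 unpainted ones and Mmp13 in 7 of 8, while painted and unpainted skins overlap in the other panels.

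DNCB-painted skin on the low AhR ligand diet contained more Timp1, a broad secreted inhibitor of MMPs, than unpainted skin on the same diet and, by a call that single libraries and the choice of test can end, more Mmp13, the main interstitial collagenase of rodents. These were the only 2 of the 10 members past an adjusted p of 0.05 in LowAhR+AD against LowAhR (edgeR), against 12.6% of all genes tested (6.42% higher and 6.21% lower). No member passed as lower by edgeR. DESeq2 called 1 member lower, Timp2, where 2673 of 14854 genes passed. The other 8 members had fitted log2 fold changes between -1.20 and 0.78. The median log2 fold change of the 10 members was 0.12, next to 0.04 for all genes tested. The CPM ranges of the 2 groups did not overlap for the same 2 members, both higher, while 18.8% of all genes had no overlap (8.92% higher and 9.85% lower). Without LowAhR+AD replicate 1, 2 members passed, beside 1718 of all 15028 genes then tested.

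Mmp13 was low without DNCB. In Cont skin its levels were 3.34, 2.45, 3.70 and 0 CPM, and in LowAhR skin 0, 0.640, 5.07 and 2.74. In LowAhR+AD skin they were 16.1, 22.3, 22.1 and 112 CPM, and every one was above every unpainted library, with replicate 4 far above the rest. Compared to LowAhR, the fitted change was 4.34 on the log2 scale (SE 1.18, 95% interval 1.86 to 6.81), a 20.2-fold difference, with an adjusted p of 0.0226 in edgeR, and the exact two-sided permutation test of 4 against 4 gave p = 0.0286, the smallest it can give. The call rested on single libraries: without LowAhR+AD replicate 4 the change was 3.24 (adjusted p = 0.0786, edgeR), and it also missed the threshold without LowAhR replicate 1 (0.0597) or LowAhR replicate 2 (0.0677). By limma voom, Mmp13 did not pass (adjusted p = 0.316). The change was 4.61 (adjusted p = 0.0173) without LowAhR+AD replicate 1 and 4.23 (0.0213) after thinning.

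Timp1 gave the clearest separation of all members. It was at 2.69, 6.97, 2.22 and 0.120 CPM in Cont skin, at 4.60, 0.640, 7.80 and 8.47 in LowAhR, at 65.3, 58.2, 33.2 and 92.0 in LowAhR+AD and at 92.1, 38.3, 27.9 and 39.7 in LowAhR+AD+BJ. The lowest of the 8 painted skins, at 27.9 CPM, was above the highest of the 8 unpainted ones, at 8.47. Compared to LowAhR, the change in LowAhR+AD was 3.53 on the log2 scale (SE 0.72, interval 2.02 to 5.03), or 11.5-fold, with an adjusted p of 0.00457 in edgeR and an exact permutation p of 0.0286. It was 3.50 (adjusted p = 0.0054) without LowAhR+AD replicate 1 and 3.48 (0.0043) after thinning. Timp1 lies inside Syn1, on the opposite strand, and how the counting treated strand is not given in the sources used here. Syn1 counts were 25 to 568 and came to 2.18% to 66.4% of the Timp1 counts in painted skin, highest in LowAhR+AD replicate 1. In unpainted skin Syn1 could exceed Timp1, with 321 against 21 counts in Cont replicate 1 and 124 against 1 in Cont replicate 4.

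The activated keratinocyte markers were also higher in LowAhR+AD against LowAhR, 4 of 4 by edgeR. Krt6a, for example, had a change of 5.41 on the log2 scale (adjusted p = 1.48e-04, edgeR). Within the LowAhR+AD group, replicate 3 had the lowest sum of these markers and the lowest Timp1, but replicate 2, with the highest sum, did not have the highest Timp1. Mmp13 was at 22.3 and 22.1 CPM in replicates 2 and 3, where the marker sums were 32976 and 11004 CPM. In LowAhR+AD+BJ replicate 3 the sum was 12594 CPM and Mmp13 was at 0.622. Among neutrophil markers, 1 of 4 tested (Cxcr2) was higher and the summed level was only 9.84 to 42.8 CPM in LowAhR+AD, against 4.89 to 13.7 in LowAhR, while 0 of 7 macrophage markers passed the test (edgeR; 1 at an unadjusted p under 0.05, and 1 lower after adjustment by DESeq2 and by limma voom). The part of cell content in the Mmp13 and Timp1 differences was not tested.

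**Figure D2:**
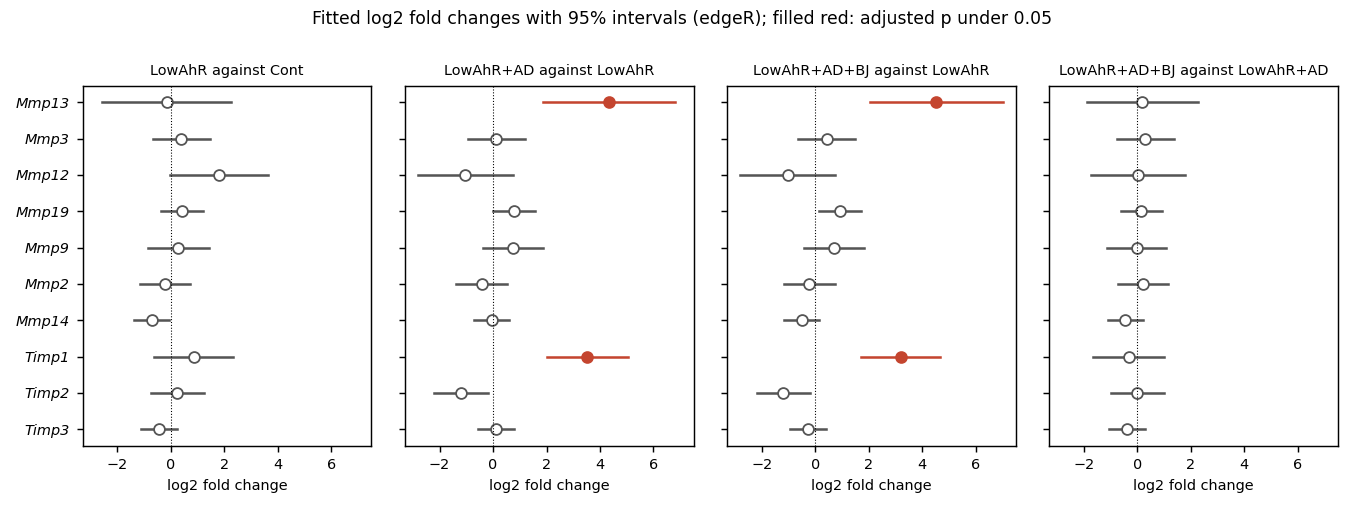
Fitted log2 fold change (x axis) of each member (y axis) in 4 comparisons, 1 panel each, with 95% intervals; filled red points have an adjusted p under 0.05. Mmp13 and Timp1 pass against LowAhR in both DNCB-painted groups, and every interval in the BJIKT panel on the right includes 0.

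For the remaining proteases the spread between mice of a group was wide. Mmp3 (stromelysin-1, which cuts non-fibrillar matrix and activates other pro-MMPs) was at 87.2, 132, 95.7 and 79.9 CPM in LowAhR and at 36.4, 97.3, 90.7 and 206 in LowAhR+AD. The painted group held both the lowest and the highest value of these 8. The fitted change was 0.13 with an interval of -0.94 to 1.20. Without LowAhR+AD replicate 1 it was 0.40, and without replicate 4 it turned to -0.40, so the direction rested on the latter library. In Cont skin Mmp3 was at 21.3, 113, 81.8 and 84.0 CPM.

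Mmp12 (macrophage metalloelastase) was low throughout. It was at 1.03, 3.36, 4.69 and 5.62 CPM in Cont, 20, 6.91, 16.4 and 7.87 in LowAhR, 9.30, 1.72, 5.13 and 8.67 in LowAhR+AD and 8.39, 9.77, 6.84 and 0 in LowAhR+AD+BJ. The highest values were those of unpainted LowAhR skin, and 2 of 4 LowAhR+AD libraries were below all of them. The change in LowAhR+AD against LowAhR was -1.04 (interval -2.82 to 0.74, adjusted p = 0.452, edgeR), and -1.31 without replicate 1.

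Mmp19 (a secreted protease also made by resting epidermis) was at 29.2, 23.2, 28.2 and 24.6 CPM in LowAhR and at 22.0, 42.4, 46.7 and 69.9 in LowAhR+AD. Here 3 of 4 painted libraries were above all LowAhR libraries and replicate 1 was below them. The change was 0.78 (interval 0.01 to 1.56, adjusted p = 0.173, edgeR), and 1.01 (0.0713) without replicate 1. Mmp19 and Tmem198b overlap by 2739 bases at their 3′ ends on opposite strands, and Tmem198b counts were 75.9% to 98.6% of those of Mmp19 in every library. Without a stated strand setting, the reads of this pair cannot be told apart.

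The gelatinases Mmp2 and Mmp9 cut denatured and basement-membrane collagen. Mmp9, which leukocytes and keratinocytes make, was at 5.0, 10.2, 9.62 and 18 CPM in LowAhR and at 7.55, 6.48, 16.2 and 41.2 in LowAhR+AD. One library, replicate 4, made up most of the group difference, and the change of 0.73 (interval -0.39 to 1.86, adjusted p = 0.397, edgeR) was -0.091 without it and 0.98 without replicate 1. Mmp2, made mainly by fibroblasts, was at 199.8, 345, 304 and 306 CPM in LowAhR and at 45.0, 199, 390.3 and 221 in LowAhR+AD. Its lowest value was in LowAhR+AD replicate 1, the library with the lowest fibroblast markers, and its highest in replicate 3, with the highest fibroblast markers of the painted group. The change of -0.43 (interval -1.38 to 0.51, adjusted p = 0.569, edgeR) was -0.10 without replicate 1.

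Mmp14 (MT1-MMP) is the membrane-bound protease that activates pro-Mmp2 at the cell surface in a complex with Timp2. It was at 374, 579.8, 325 and 309 CPM in LowAhR and at 540.2, 276, 459.6 and 264 in LowAhR+AD. The groups were interleaved, with a change of -0.04 (interval -0.70 to 0.61, edgeR), which was -0.26 without replicate 1.

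Timp2, which both inhibits MMPs and takes part in that activation, was the member with the most negative estimate. It was at 588, 1001, 1263 and 1981 CPM in LowAhR and at 319.5, 383, 959 and 439 in LowAhR+AD. In painted skin 3 of 4 libraries were below all LowAhR libraries and replicate 3 was among them. The change of -1.20 (interval -2.20 to -0.20) did not pass the test, with an adjusted p of 0.104 in edgeR and an exact permutation p of 0.0571; it was -1.67 (adjusted p = 0.0317) without LowAhR+AD replicate 3 and -1.03 (0.203) without replicate 1. That replicate 3 also had the highest fibroblast markers of the painted libraries, at 22611 CPM. Over LowAhR+AD against LowAhR, 0 of 7 fibroblast markers were higher and 2 (Col1a1 and Col1a2) were lower, with a median log2 fold change of -1.17 over the list. The growth factor receptors of the list, Pdgfra (0.29, adjusted p = 0.652, edgeR) and Pdgfrb (0.56, 0.322), had positive estimates. Without LowAhR+AD replicate 1 these 2 were at 0.56 (adjusted p = 0.297, edgeR) and 0.79 (0.126). Col1a1 was then at -1.45 (0.0453) and Col1a2 at -1.66 (0.024). The part of fibroblast content in Timp2, Mmp2 and Mmp14 was not tested.

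Timp3, the matrix-bound inhibitor that also acts on ADAM proteases, was at 324, 388, 334 and 377 CPM in LowAhR and at 729, 306, 231 and 279 in LowAhR+AD. Replicate 1 was above and the other 3 below all LowAhR libraries. The change of 0.12 (interval -0.56 to 0.80) accordingly turned to -0.39 (adjusted p = 0.35, edgeR) without replicate 1. Timp3 lies inside Syn3, whose counts were at most 1.99% of those of Timp3.

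**Figure D3:**
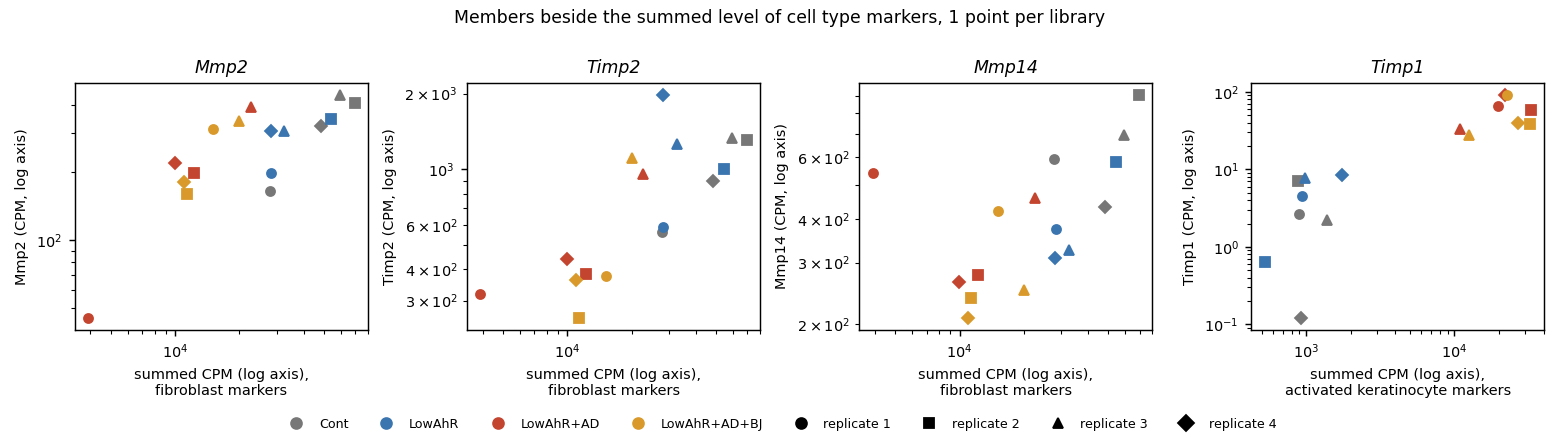
Levels of 4 members (y axes, CPM) against the summed CPM of cell type markers (x axes), both on log axes, with 1 point per library, coloured by group and shaped by replicate. LowAhR+AD replicate 1 has the lowest fibroblast markers, 3905 CPM, and the lowest Mmp2, 45.0 CPM, while Timp2 is highest, at 1981 CPM, in LowAhR replicate 4, where these markers sum to 28026 CPM. Timp1 splits into the same unpainted and painted sets as the activated keratinocyte markers.

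Set side by side within painted skin, the members did not vary as a block. LowAhR+AD replicate 4 had the highest Mmp3, Mmp9, Mmp13, Mmp19 and Timp1 of its group, and LowAhR+AD+BJ replicate 1 the highest of the same 5 and of Mmp14. LowAhR+AD+BJ replicate 3 had the lowest Mmp3, Mmp9, Mmp13 and Timp1 and the highest Mmp2, Timp2 and Timp3. LowAhR+AD replicate 1 was lowest in Mmp2, Mmp3, Mmp13, Mmp19 and Timp2 and highest in Mmp12, Mmp14 and Timp3. Across the 16 libraries the log2 CPM of Mmp13 and Timp1 had a Pearson r of 0.81, and of 0.58 after group means were removed, and the corresponding values for Mmp2 and Timp2 were 0.70 and 0.70. These correlations describe libraries that also share depth, cell content and treatment.

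Painted skin of BJIKT-treated mice also contained more Timp1 than unpainted skin on the diet, while Mmp13 passed by edgeR but not by limma voom (adjusted p = 0.49). In LowAhR+AD+BJ against LowAhR, 2 of 10 members passed (edgeR), both higher, against 6.77% of all genes (3.64% higher and 3.12% lower). Both comparisons use the same LowAhR libraries. Timp1 was 9.17-fold higher (log2 3.20, SE 0.71, adjusted p = 0.0118, exact permutation p = 0.0286), with all 4 libraries above all LowAhR ones, the only member of the 10 without overlap, against 17.1% of all genes (8.91% higher and 8.19% lower). Mmp13 was at 91.7, 45.8, 0.622 and 58.7 CPM, 3 libraries far above LowAhR and 1 within its range. Its change was 4.53 on the log2 scale (SE 1.19, adjusted p = 0.0294 in edgeR) but the exact permutation p was 0.114. The edgeR call held in 2 of 8 leave-one-out fits, those without LowAhR replicate 3 or LowAhR+AD+BJ replicate 3.

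Among the other members, Timp2 was at 377, 255, 1104 and 364 CPM in LowAhR+AD+BJ. As in LowAhR+AD, 3 libraries lay below all LowAhR ones and replicate 3 among them, and the change of -1.20 had an adjusted p of 0.14 in edgeR. Without LowAhR+AD+BJ replicate 3, which at 20013 CPM had the highest fibroblast markers of its group, it was -1.86 (adjusted p = 0.0154). Mmp19, at 87.2, 28.1, 33.8 and 50.1 CPM, had a change of 0.92 (adjusted p = 0.147), with the same reservation about Tmem198b.

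BJIKT, with its gavage, was compared in LowAhR+AD+BJ against LowAhR+AD, where no member passed the test. By edgeR 0 of 10 members passed (0% of all genes), and 0 reached an unadjusted p under 0.05, where 9.46% of all genes did. DESeq2 and limma voom also called 0 members, where 17 and 0 of all 14854 genes passed. Timp1 was at a mean of 49.5 ± 28.9 CPM (SD, n = 4) with BJIKT and 62.2 ± 24.2 without, a change of -0.33 with an interval of -1.67 to 1.01. The intervals are wide: for Mmp13, at 49.2 ± 37.7 and 43.2 ± 46.1 CPM, the change of 0.19 had an interval of -1.89 to 2.26. The estimates furthest from 0 were those of Mmp14, at -0.46 (interval -1.11 to 0.19), with 3 of 4 BJIKT libraries at 238, 251 and 208 CPM below all of LowAhR+AD, and Timp3, at -0.39 (-1.07 to 0.29). Both missed the test, and without LowAhR+AD replicate 1 they were -0.25 and 0.10. For Mmp3 the interval was -0.77 to 1.37, for Mmp9 -1.15 to 1.08, for Mmp2 -0.73 to 1.15, for Mmp12 -1.75 to 1.77, for Mmp19 -0.63 to 0.90 and for Timp2 -0.98 to 0.98.

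The diet alone was compared in LowAhR against Cont. By edgeR 0 of 10 members passed (0% of all genes). DESeq2 and limma voom also called 0 members, where 491 and 0 of all 14854 genes passed. By edgeR 1 member, Mmp14, had an unadjusted p under 0.05 (13.7% of all genes did). Mmp14 was at 593, 906, 692 and 433 CPM in Cont, and 3 of 4 LowAhR libraries were below all of these. Its change was -0.72 (interval -1.38 to -0.07, adjusted p = 0.303, edgeR). In the other direction, all 4 LowAhR libraries had more Mmp12 than any Cont library, a change of 1.79 (SE 0.87, adjusted p = 0.376, edgeR; exact permutation p = 0.0286). Macrophage markers summed to 719 to 858 CPM in LowAhR against 266 to 721 in Cont; Lyz2 (1.5, adjusted p = 0.463, edgeR) and Cd68 (0.65, 0.465) also separated without overlap, and 0 of 7 passed the test. Their part in the Mmp12 values was not tested. Timp3, at 427, 609.8, 477 and 423 CPM in Cont, was lower in all 4 LowAhR libraries, with a change of -0.44 (adjusted p = 0.603, edgeR; exact permutation p = 0.0286). Such separation without overlap was seen for 11.3% of all genes (5.68% higher and 5.63% lower), and here for 2 of 10 members.

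Diet and DNCB were compared jointly in LowAhR+AD against Cont, where 3 of 10 members passed (edgeR; 21.8% of all genes, 12.3% higher and 9.47% lower), all of them higher. Timp1 was 20.7-fold higher (log2 4.37, adjusted p = 7.83e-04) and Mmp13 18.2-fold (log2 4.18, adjusted p = 0.0158). Mmp19, with 3 of 4 libraries above all Cont libraries, which were at 17.6, 29.1, 12.1 and 20.2 CPM, was 2.29-fold higher (log2 1.20, adjusted p = 0.0281), and its call held in 4 of 8 leave-one-out fits. Without LowAhR+AD replicate 4 both Mmp13 (3.09, adjusted p = 0.0689) and Mmp19 (0.91, 0.109) missed the threshold. Without LowAhR+AD replicate 1, 5 members passed, beside 3486 of all 15028 genes then tested. Mmp14 (-0.99, adjusted p = 0.0336, edgeR) and Timp3 (-0.85, 0.0219) were then also lower.

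The summed transcripts of the 7 MMP and 3 TIMP members overlapped in size between the groups. Mmp13 and Timp1 took a larger mean share of these sums in painted skin. MMP reads and TIMP reads below are those of these members only. The 7 MMPs summed to 808 to 1470 CPM in Cont, 715 to 1098 in LowAhR, 645 to 1031 in LowAhR+AD and 598 to 1225 in LowAhR+AD+BJ, overlapping in every pair of groups. The 3 TIMPs summed to 991 to 1919, 916 to 2367, 747 to 1224 and 552 to 1569 CPM, with means of 1511, 1569, 974 and 869. Mmp14 and Mmp2 supplied most MMP reads, with mean shares of 47.0% and 34.8% in LowAhR. Mmp13 made up on average 0.268% of the MMP reads in LowAhR, 5.03% in LowAhR+AD and 6.25% in LowAhR+AD+BJ. In LowAhR+AD+BJ its share ran from 0.0882% to 9.75%, with the lowest value inside the 0% to 0.647% of LowAhR. Timp1 made up on average 0.348%, 6.93% and 7.14% of the TIMP reads. Its share was at most 0.501% in LowAhR and at least 2.72% in LowAhR+AD and 1.78% in LowAhR+AD+BJ. The rest of the reads of the 3 TIMP members came from Timp2 and Timp3. Outside these sums, Timp4 was at a mean of 40.2 CPM in LowAhR and 7.66 in LowAhR+AD, and Mmp11 at 26.5 and 88.9. The ratio of TIMP to MMP reads was 1.37 ± 0.132 in Cont, 1.94 ± 0.894 in LowAhR, where replicate 4 was at 3.16, 1.22 ± 0.318 in LowAhR+AD and 1.21 ± 0.725 in LowAhR+AD+BJ (mean ± SD, n = 4), with overlapping ranges; it compares transcripts and not protein or inhibitor activity.

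**Figure D4:**
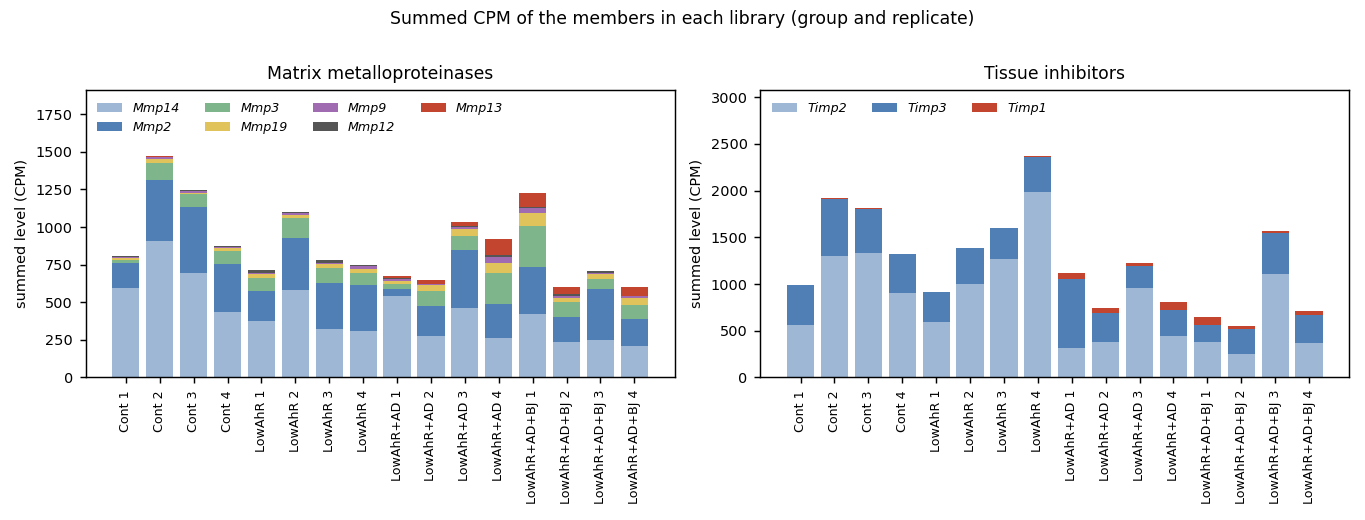
Summed CPM (y axis) of the 7 MMPs (left) and the 3 TIMPs (right) in each of the 16 libraries, named by group and replicate on the x axis, with 1 colour per gene. Mmp13 and Timp1, both in red, appear in the DNCB-painted libraries as a small part of pools made mostly of Mmp14 and Mmp2 or Timp2 and Timp3. In LowAhR+AD+BJ replicate 3, Mmp13 was at only 0.622 CPM.

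Beyond the 10 members, other genes of pericellular proteolysis were taken from 4 lists. Of a list of 18 genes (other MMPs, Timp4 and the membrane-anchored MMP inhibitor Reck), 13 could be tested in LowAhR+AD against LowAhR, and 2 were higher and 1 lower (edgeR; 2 and 1 without LowAhR+AD replicate 1), where 6.42% of all genes were higher and 6.21% lower. These shares over all genes also stand beside the counts of the next lists. Mmp8, the neutrophil collagenase, was at 0, 0, 3.25 and 1.07 CPM in LowAhR and 5.64, 21.2, 7.53 and 38.8 in LowAhR+AD, another collagenase with no overlap between the groups (log2 4.06, adjusted p = 0.0223 by edgeR and 0.0764 by limma voom). Mmp11 (stromelysin-3, made by stromal cells) rose from 21.6, 15.1, 19.2 and 49.8 CPM to 31.6, 54.4, 127 and 143, with 3 of 4 painted libraries above all LowAhR ones (log2 1.75, adjusted p = 0.0204). Timp4, the remaining inhibitor, was at 53.0, 29.8, 39.8 and 38.4 CPM in LowAhR and at 7.55, 3.12, 2.87 and 17.1 in LowAhR+AD. Timp4 thus went the opposite way to Timp1, with no overlap (log2 -2.39, adjusted p = 0.0171). In Cont skin Timp4 was at 7.83, 8.13, 39.2 and 20.8 CPM, a range that overlaps the painted group.

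Of 15 ADAM and ADAMTS proteases, 14 could be tested, and 2 were higher and 2 lower. Adamts1 (log2 0.92, adjusted p = 0.0357) and Adamts15 (2.44, 0.0414), both proteases of proteoglycans, were higher by edgeR. Neither passed by limma voom (0.0578 and 0.0861), and without LowAhR+AD replicate 1 Adamts1 had an adjusted p of 0.0567. Adamts2, the procollagen N-proteinase, fell from 443, 736, 394 and 353 CPM in LowAhR to 99.2, 154, 263 and 166 in LowAhR+AD (log2 -1.5, adjusted p = 0.0103), as did Col1a1 and Col1a2, whose collagen it trims. Adamts5, an aggrecanase, fell from 157 to 167 CPM across LowAhR to 44.5 to 73.2 (log2 -1.45, adjusted p = 0.00392). Both changes had no overlap between groups.

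Of 8 activators and binding partners, 7 could be tested, and 3 were higher and 0 lower. Lcn2 (lipocalin 2, which binds Mmp9) was at 7.57, 3.84, 2.73 and 2.50 CPM in LowAhR and 73.2, 123, 7.69 and 115 in LowAhR+AD, where replicate 3, with the lowest activated keratinocyte markers, was also lowest (log2 4.26, adjusted p = 0.00327 by edgeR and 0.185 by limma voom). Cd44, a hyaluronan receptor that docks MMPs at the cell surface, was 2.61-fold higher (adjusted p = 0.00436). Furin, a proprotein convertase that activates Mmp14 and Mmp11, was at 559 CPM in LowAhR+AD replicate 1 and at 194, 149 and 162 in the others, against 72.0 to 123 in LowAhR; its change of 1.35 (adjusted p = 0.0191) was 0.69 (0.0658) without replicate 1. Of 8 genes of the plasminogen system, the other large extracellular protease cascade, 6 could be tested. In LowAhR+AD against LowAhR 0 of them passed by edgeR, DESeq2 or limma voom, with log2 fold changes from -0.73 to 0.67 (edgeR).

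In LowAhR+AD+BJ against LowAhR, Timp4 (log2 -2.63, adjusted p = 0.0164, edgeR), Adamts2 (-1.26, 0.0363), Adamts5 (-1.24, 0.0137), Adamts1 (0.96, 0.0423), Cd44 (1.59, 0.0038) and Lcn2 (4.73, 0.0036) again passed; by limma voom Adamts1 (0.0702) and Lcn2 (0.184) did not. Mmp8 (3.59, 0.0534), Mmp11 (1.27, 0.106), Adamts15 (1.24, 0.354) and Furin (0.36, 0.607) did not pass by edgeR, though DESeq2 called Mmp8 (0.00478) and Mmp11 (0.046). DESeq2 also called Serpinb2 of the plasminogen list (1.17, adjusted p = 0.0412) and Adam15 (-0.84, 0.0404). Neither passed by edgeR, nor by limma voom (0.17 and 0.0881). Against LowAhR+AD, 0 genes of the 4 lists passed by edgeR, DESeq2 or limma voom, and by edgeR 1 gene each of the ADAM, plasminogen and partner lists had an unadjusted p under 0.05.

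**Figure D5:**
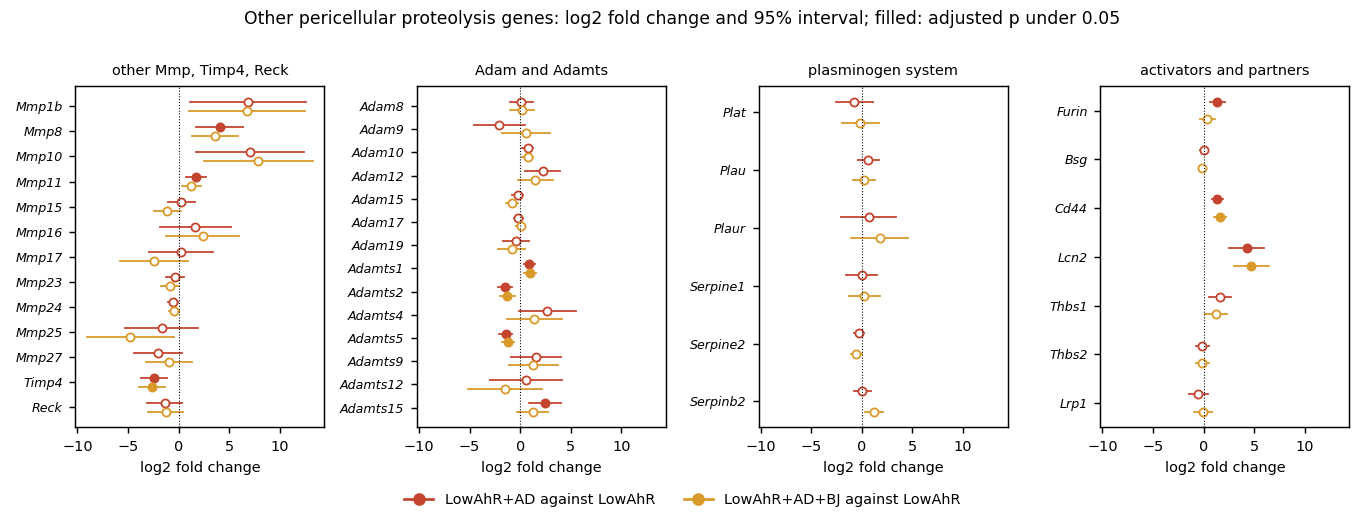
Fitted log2 fold changes (x axis) with 95% intervals for the tested genes of 4 further lists (1 panel each), in LowAhR+AD (red) and LowAhR+AD+BJ (yellow) against LowAhR; filled points have an adjusted p under 0.05. Mmp8, Mmp11, Adamts1, Adamts15, Furin, Cd44 and Lcn2 lie to the right and Timp4, Adamts2 and Adamts5 to the left in LowAhR+AD, and no gene of the plasminogen system is filled.

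Outside these lists, the gene most like each member across the 16 libraries was looked up among the 14853 other tested genes. Pearson correlations of log2 CPM were highest for Mmp19 with Tmem198b (0.99), the overlapping gene named above. Mmp2 was most like Dpysl3 (0.95) and Olfml1 (0.95), and Timp1 most like Mybl2 (0.94) and Igsf8 (0.93). Mmp13 was most like Prl2c4 (0.90) and Prl2c3 (0.90), which are near-identical copies whose reads may be shared, and Mmp3 most like Crlf2 (0.89). For Timp2 it was H2-DMb1 (0.92), for Timp3 Mapkbp1 (0.90), for Mmp14 Kmt2a (0.86), for Mmp12 Angpt2 (0.84) and for Mmp9 Cryz (0.83). With the group means removed, the values for each member's best match ran from 0.66 (Mmp14 with Kmt2a) to 0.98 (Mmp19 with Tmem198b), and these pairs were picked on the same libraries.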

How the data were processed

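The authors prepared QuantSeq 3′ libraries from total RNA of dorsal skin and deposited, for each of the 16 samples, raw read counts per gene symbol. The submitters' processing notes name Bowtie2, bedtools and the mm10 build, and the paper names ExDEGA for its analysis. The versions of Bowtie2 and bedtools, the annotation and the strand setting are not given in the sources used here. Samples were grouped by their labels. Where nothing says more, p-values measure the spread between these mice.

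Counts were filtered (filterByExpr, minimum count 10, minimum total 15), scaled by TMM and fitted over all 16 libraries with edgeR 4.0.16 in R 4.3.3. Comparisons used the quasi-likelihood test with Benjamini-Hochberg adjustment over 14854 rows, and a gene was called at an adjusted p under 0.05. CPM on a log2 scale used a prior count of 2. Single genes were also compared by exact two-sided permutation of the difference of mean log2 CPM, whose smallest p for 4 against 4 is 0.0286. A count of 0 allows up to 3 counts, or 0.229 to 0.406 CPM, for counting error only. The scripts were tested on simulated data.

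All members were named by rule, as were genes of the 4 further lists that passed in LowAhR+AD against LowAhR or in LowAhR+AD+BJ against LowAhR+AD, and the genes most like each member. The members and lists were chosen with earlier results of these data known. Also run were DESeq2 1.42.0, limma 3.58.1 (voom), scaling by RLE or by upper quartiles, other filters, only the compared libraries, a replicate block, library sizes without tissue markers, each library left out and, chosen after seeing the data, thinned counts and the further lists without LowAhR+AD replicate 1. Equal replicate numbers were not taken as pairs, except in the replicate block. Marker genes Ly6g and Trac were not analysed here.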

Additional observations from a re-analysis of the deposited data

Results flagged for a closer look

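In 4 of the 40 sets of 4 libraries (10 members in 4 groups), 1 library lay far from the other 3, by Dixon's gap test at the 95% level. The test was run on log2 CPM with a prior count of 2, a scale that widens gaps near 0 CPM. Chance flags about 1 set in 20. The flagged values are given in CPM. Mmp13 was 112 CPM in LowAhR+AD replicate 4 against 16.1 to 22.3 in the others of its group. Mmp13 was 0.622 CPM in LowAhR+AD+BJ replicate 3 against 45.8 to 91.7. Mmp13 was 0 CPM in Cont replicate 4 against 2.45 to 3.70. Mmp12 was 0 CPM in LowAhR+AD+BJ replicate 4 against 6.84 to 9.77.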

How the results depend on the processing

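Timp1 passed against LowAhR in both painted groups, and in LowAhR+AD against Cont, under every alternative that tested it. A minimum of 10 counts in every library removed Timp1, Mmp13 and Mmp12 by construction (10224 genes tested). It left 0 members called in LowAhR+AD against LowAhR, where 1966 of all genes passed. In LowAhR+AD+BJ against LowAhR it left 0 (1219 of all genes) and in LowAhR+AD against Cont 1 (2932 of all genes). With limma voom 1 member was called in each of these comparisons, where 2092, 1005 and 3206 of 14854 genes passed. By that test Mmp13 missed (adjusted p of 0.316, 0.49 and 0.292) and Mmp19 had 0.0609 in LowAhR+AD against Cont. With only the 8 libraries compared Mmp19 had 0.0554 (edgeR). DESeq2 also called Timp2 (0.035 and 0.0425 against LowAhR). With 1 library left out, the member counts of the same comparisons ran from 1 to 3, 1 to 3 and 1 to 5. Counts over all genes ran from 1128 to 2015, 414 to 1469 and 2460 to 3486. In the left-out fits, member counts stayed at 0 in LowAhR against Cont (0 to 159 of all genes) and in LowAhR+AD+BJ against LowAhR+AD (0 to 1). In these 2 comparisons they were also 0 by DESeq2, where 491 and 17 of 14854 genes passed. With only the 8 libraries compared they were 0 as well, where 250 of 13574 and 0 of 14016 genes passed (edgeR).

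Deviations from the group mean had an r of -0.05 to 0.17 between same-numbered samples. Differently numbered samples were not compared in this way, so these values cannot decide whether the numbers mark pairs. With a replicate block Mmp13 had an adjusted p of 0.0516 in LowAhR+AD and 0.0624 in LowAhR+AD+BJ against LowAhR, Timp2 had 0.0343 and 0.045 (0.0483 in LowAhR+AD against Cont), and Mmp9 in LowAhR+AD+BJ against LowAhR+AD turned to 0.31. Member counts under the block were 2, 2 and 4, beside 1689, 947 and 2990 of all 14854 genes.

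The sign of members that missed the test was less stable. With 1 library left out, log2 fold changes crossed 0 in LowAhR+AD+BJ against LowAhR+AD for Mmp12 (-0.30 to 0.42), Mmp13 (-0.30 to 1.29), Mmp19 (-0.28 to 0.43), Mmp2 (-0.13 to 0.68), Mmp3 (-0.34 to 0.82), Mmp9 (-0.48 to 0.79), Timp2 (-0.67 to 0.46) and Timp3 (-0.65 to 0.10), in LowAhR against Cont for Mmp13 (-1.03 to 0.25), Mmp9 (-0.087 to 0.52) and Timp2 (-0.10 to 0.47), in LowAhR+AD against LowAhR for Mmp14 (-0.26 to 0.20), Mmp3 (-0.40 to 0.40), Mmp9 (-0.091 to 1.11) and Timp3 (-0.39 to 0.30), and for Mmp3 in LowAhR+AD against Cont (-0.00056 to 0.79) and LowAhR+AD+BJ against LowAhR (-0.21 to 0.67). By limma voom Mmp3 (-0.10) and Timp3 (-0.035) turned in LowAhR+AD against LowAhR and Mmp9 (0.25), Mmp12 (-1.08) and Mmp13 (-0.79) in LowAhR+AD+BJ against LowAhR+AD, where upper-quartile factors gave 0.0070 for Timp2 and thinning -0.011 for Mmp12; apart from the named filter and left-out libraries, the cause was not tested.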

Other observations

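Of the MMPs that missed the test by edgeR, Mmp10 and Mmp1b were at 0 counts in all 8 unpainted libraries. They are named here after their values were seen. Neither was examined in thinned counts, and painted libraries were deeper. Mmp10 (stromelysin-2, a protease of migrating keratinocytes) had 0, 28, 23 and 33 counts in LowAhR+AD and 88, 37, 3 and 0 in LowAhR+AD+BJ. Its adjusted p against LowAhR was 0.0789 in LowAhR+AD by edgeR, 0.0269 by DESeq2 and 0.2 by limma voom. Mmp1b (a rodent relative of interstitial collagenase) had 19, 6, 0 and 49 counts in LowAhR+AD and 44, 0, 0 and 14 in LowAhR+AD+BJ, with an adjusted p of 0.111 in LowAhR+AD against LowAhR. A count of 0 allows up to 0.406 CPM in these libraries.

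T-cell markers had a summed level of 16.5 to 28.9 CPM in LowAhR, 0 to 5.28 in LowAhR+AD and 2.62 to 15.2 in LowAhR+AD+BJ. Of the 3 tested in LowAhR+AD against LowAhR, Cd3e (log2 -6.18, adjusted p = 0.0139) and Cd3g (-5.00, adjusted p = 0.00855) were lower by edgeR. These genes were not examined without LowAhR+AD replicate 1, whose summed level was 0 CPM. The other LowAhR+AD libraries were at 0.984, 5.28 and 1.36 CPM, so both estimates rest on values near 0. Hair follicle markers ranged from 7.83 to 9102 CPM without DNCB and from 5849 to 23329 with it.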
